A study of Mus musculus with 6 samples.

Results

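Cytosolic ribosomal protein genes were compared between forebrains of mouse embryos heterozygous for an inactive copy of Dyrk1a and forebrains of wild-type embryos. The members were the protein-coding genes of the deposited table whose GRCm38 symbol starts with Rpl or Rps and a digit, or is Rplp0, Rplp1, Rplp2 or Rpsa, without the S6 kinases and without names of pseudogenes. There were 85 such genes among 33084 in the table, and 82 of them were among the 19403 genes with enough counts to be tested. Rpl3l, Rpl39l and Rps27rt were not tested, with 1, 5 and 3 counts over all libraries. Of the 85, 31 encode proteins of the small (40S) subunit, 43 proteins of the large (60S) subunit, and 3 the P stalk. The remaining 8 are paralogs or outlying names, including Rps19bp1, whose product binds a ribosomal protein and is not one.

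The mutant group was Dyrk1a<+/-> (Het, 3 forebrains) and its comparator was wt (3 forebrains), all microdissected at embryonic day 15.5 and sequenced as bulk RNA, 1 library each. Dyrk1a encodes a protein kinase of brain growth and of the exit of progenitors from the cell cycle. The labels name the line of mice and give neither the strain nor the sex of the embryos. The titles call the replicates biological, so they were taken as separate embryos.

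A ribosome holds a single copy of nearly every ribosomal protein, and cells therefore make these proteins in matched amounts. The mRNAs are among the most abundant in growing cells, most begin with a run of pyrimidines after the cap (the 5′ TOP motif), and their translation is tuned by mTOR signalling through Larp1 and related factors. Loss of a single copy of several of these genes causes Diamond-Blackfan anaemia in humans, and free Rpl5 and Rpl11 bind Mdm2 when ribosome assembly fails. In the embryonic forebrain, dividing progenitors need high ribosome production, and neurons keep a large translation apparatus.

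The promoters of 8 members are shown because the results below turn on these genes: the member with the narrowest spread (Rps10), wide ones (Rpl38 and Rplp0), members that did not follow the others (Rpl15, Rpl26 and Rpl22l1) and those of lowest p (Rpl7l1, Rps3a1). Each is the 100 bases before and the 30 bases from the annotated start, 5′ to 3′, from RefSeq on GRCm38.p6. Capitals mark matches on either strand to CCGGAAG (the core that ETS factors recognise), to CCAAT (the core of the NF-Y site), to TATAAA (the TATA box) or to the palindrome TCGCGA, and runs on the sense strand of at least 8 C or T that begin with C at or after 10 bases before the start.
Rps10 (chr17:27635215-27635344, minus strand): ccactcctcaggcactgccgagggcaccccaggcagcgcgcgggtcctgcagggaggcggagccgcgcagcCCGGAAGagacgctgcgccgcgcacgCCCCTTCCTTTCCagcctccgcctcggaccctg
Rpl38 (chr11:114668480-114668609, plus strand): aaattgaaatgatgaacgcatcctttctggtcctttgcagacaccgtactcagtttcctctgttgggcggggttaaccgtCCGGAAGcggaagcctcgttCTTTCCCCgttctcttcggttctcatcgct
Rpl15 (chr14:18270957-18271086, minus strand): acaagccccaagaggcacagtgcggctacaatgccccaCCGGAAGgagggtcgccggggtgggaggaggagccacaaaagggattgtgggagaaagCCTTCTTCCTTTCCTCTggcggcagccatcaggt
Rplp0 (chr5:115559367-115559496, plus strand): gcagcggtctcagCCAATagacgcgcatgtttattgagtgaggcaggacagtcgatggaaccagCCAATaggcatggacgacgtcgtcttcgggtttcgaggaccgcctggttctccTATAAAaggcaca
Rpl26 (chr11:68901466-68901595, plus strand): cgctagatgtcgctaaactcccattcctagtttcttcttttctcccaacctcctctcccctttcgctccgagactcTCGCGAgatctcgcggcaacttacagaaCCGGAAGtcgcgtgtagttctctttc
Rps3a1 (chr3:86142639-86142768, minus strand): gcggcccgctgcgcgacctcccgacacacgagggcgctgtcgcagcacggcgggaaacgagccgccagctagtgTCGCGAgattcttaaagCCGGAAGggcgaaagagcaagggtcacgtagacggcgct
Rpl22l1 (chr3:28805408-28805537, plus strand): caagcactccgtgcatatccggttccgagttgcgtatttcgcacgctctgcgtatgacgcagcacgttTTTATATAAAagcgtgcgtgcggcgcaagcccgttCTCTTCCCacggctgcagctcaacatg
Rpl7l1 (chr17:46782627-46782756, minus strand): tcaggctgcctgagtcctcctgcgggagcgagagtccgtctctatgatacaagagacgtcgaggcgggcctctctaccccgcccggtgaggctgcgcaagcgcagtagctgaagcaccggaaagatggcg

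The table of promoters held 65 of the 85 members, of which 57 were canonical subunit or stalk genes. A pyrimidine run lay within 10 bases before to 49 bases after the start in 39 of the 57 (68.4%), against 15.6% of 16521 promoters of protein-coding genes. In the windows above it can be read in Rps10, Rpl38, Rpl15 and Rpl22l1. Rpl26 also has a run, of 12 bases, which begins in the last printed bases and crosses the end of the window, so it is not in capitals. In windows of 250 bases before to 50 after the start, the ETS core CCGGAAG was found in 22 of 57 (38.6%), against 12.3% of all, and the palindrome TCGCGA in 14 of 57 (24.6%), against 3.59% of all. The TATA box was in 5 of 57 (8.77%), against 12.9%, and CCAAT in 18 of 57 (31.6%), against 38.6%. The E-box, whose letters are CACGTG, was in 5 of 57 (8.77%), against 8.04%. All motifs but the pyrimidine run were searched on both strands, and overlapping matches were allowed. A match describes letters in the window only.

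The libraries held 20682150, 25012356 and 18699434 counts in Het replicates 1 to 3 and 32865708, 25270710 and 27861000 in wt replicates 1 to 3. The Dyrk1a gene was at 149, 147 and 158 CPM (counts relative to the TMM-scaled library total) in Het forebrains and at 177, 186 and 160 in wt forebrains. The Het libraries lay below the wt libraries, with a log2 fold change of -0.20 (SE 0.079) and an edgeR adjusted p of 0.590. All 9 forebrain identity genes had enough counts to be tested, and of 8 midbrain and hindbrain genes only Gbx2 had enough counts. Het replicate 2 and wt replicate 3 stood apart from the other 4 libraries: transcripts without a poly(A) tail (7SK and the RNAs of RNase P and RNase MRP) took 4.0% of the counts of Het replicate 2 and 4.46% of those of wt replicate 3, against 2.57% and 2.86% in the other Het libraries and 2.86% and 3.01% in the other wt libraries. Results are therefore given with and without this pair.

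Ribosomal protein mRNAs were abundant and their levels per length differed widely among members. Per kilobase of the principal transcript, the 77 canonical members tested had a mean of 38.0 to 634 RPKM (CPM per kilobase), with a median of 214, and 67 members of the rule were among the 500 genes of highest RPKM. Rps9 of the 40S subunit and Rplp1 of the P stalk were among the highest, with means of 634 and 627 RPKM over the 6 libraries, and Rps29 (569), Rps14 (565) and Rpl32 (511) lay below them. Neighbours in this order were not apart: Rps9 ran from 569 to 707 RPKM over the 6 libraries and Rplp1 from 545 to 781. The lowest canonical value, 38.0 RPKM for Rps15a, rests on a principal transcript of 5130 bases, the longest among the canonical members, whose median was 774 bases. The order of levels was nearly the same in both genotypes, with Spearman's rho of 0.99 across the 77 genes, which share libraries and are not independent replicates.

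**Figure D1:**
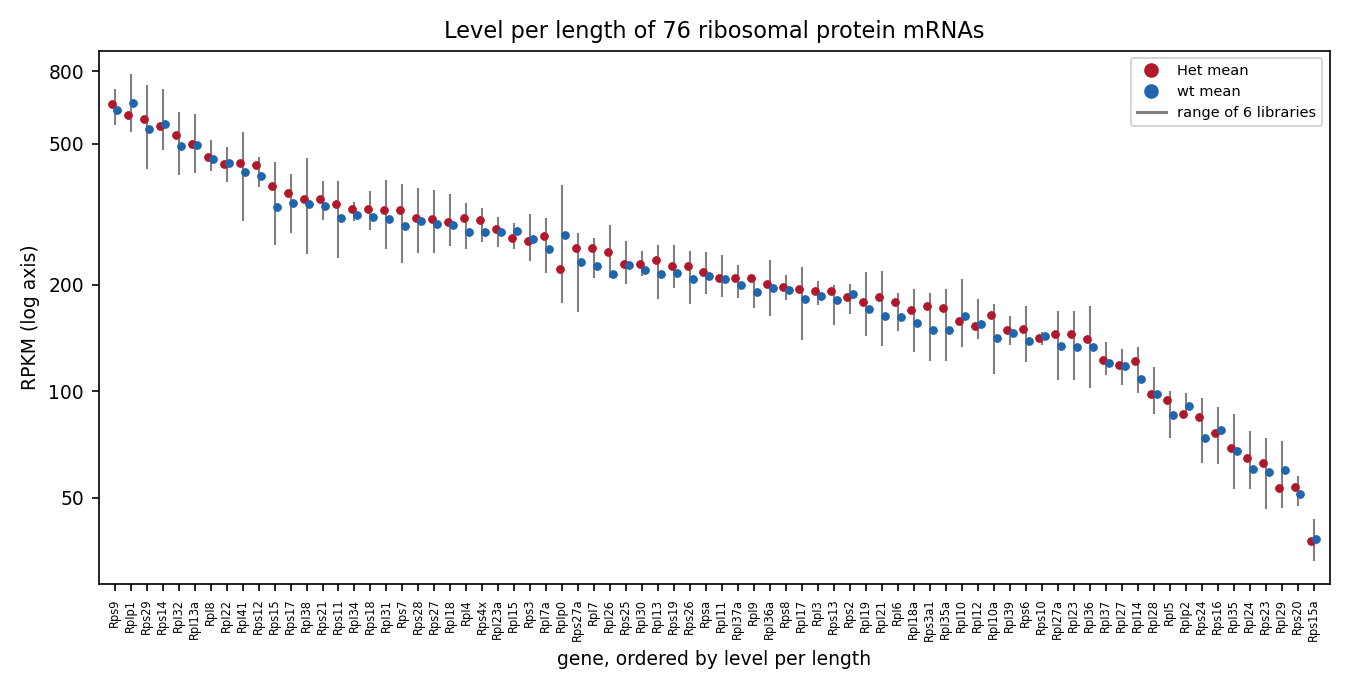
Level per length of 76 of the 77 canonical ribosomal protein mRNAs, in RPKM on a log axis, ordered from highest to lowest. Red points are Het means and blue points wt means (n = 3 each), and grey lines run from the lowest to the highest of the 6 libraries; Rps9 and Rplp1 are among the highest, and Rps15a is the lowest.

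Many ribosomal protein genes have processed copies elsewhere in the genome, and how reads that match several places were counted is not given in the sources used here. For 47 of the 77 canonical members at least 50% of the 50-base windows of the principal transcript also occurred in an annotated transcript of another gene, with a median of 56.6% over the members. The share reached 98.6% in Rps27 and was under 10% in 5 of the 77. The share was weakly related to the level per length (rho -0.11 across the 77). Exons of 25 members overlapped an exon of another counted gene, Rpl15 and Rps10 among them, and the strand setting of the counting is not known, so values of such members are uncertain in level.

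Summed over the members, ribosomal protein mRNA made up 1.43, 1.65 and 1.38% of counts in Het replicates 1 to 3 and 1.28, 1.35 and 1.68% in wt replicates 1 to 3. The summed level was 14309, 16627 and 13785 CPM in Het forebrains (mean 14907 ± 1513, SD, n = 3) and 12791, 13536 and 16744 CPM in wt forebrains (14357 ± 2100). The groups overlapped, and the ratio of the means, 1.04, was smaller than the ratio of the highest to the lowest library within Het (1.21) or within wt (1.31). The 40S members summed to 6483 ± 686 CPM in Het and 6223 ± 873 in wt, and the 60S members to 8278 ± 825 in Het and 8001 ± 1222 in wt (SD, n = 3 each). In bulk tissue fewer cells of a type and less RNA per cell cannot be told apart, so these sums do not give ribosomal protein mRNA per cell.

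No member passed the adjusted threshold of 0.05 in edgeR's quasi-likelihood test, against 0.0103% of all genes tested (2 genes), and the lowest adjusted p of a member was 0.558. At an unadjusted p under 0.05 there was 1 member of 82, Rpl7l1, which is 1.22% against 7.88% of all genes tested. That member was higher in Het, against 3.27% of all genes, and 0 members were lower at this p, against 4.61%. DESeq2 and limma-voom likewise called 0 members, with 1 member each at an unadjusted p under 0.05. The log2 fold change was above 0 for 65 of 82 members (79.3%), against 51.2% of all genes, but the differences were small: the median was 0.07 (1.05-fold), against 0.0048 over all genes, and the values ran from -0.31 (Rplp0) to 0.23 (Rps19bp1). Without Het replicate 2 the median was -0.0023 and 39 members were above 0, and without wt replicate 1 it was -0.01 and 38 were above 0, whereas without wt replicate 3 it was 0.19 and 75 were above 0. The direction of the median therefore rests on single libraries.

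The intervals bound the size of a difference that these libraries could have hidden. The 95% interval of the fold change lay within 1.3-fold in either direction for 42 members, within 1.5-fold for 81 and within 2-fold for all 82 tested. Of all 19403 genes tested, 7797, 12323 and 16567 lay within these bounds. The median SE was 0.12 over the members and 0.084 over the other genes of at least 50 CPM. Rplp0 was the member outside 1.5-fold, with an interval of 0.531 to 1.22. The difference of the genotype means of log2 CPM exceeded the SD within genotypes in 12 members (14.6%), against 35% of all genes tested. Libraries of the genotypes did not overlap, with Het higher, in 1 member (1.22%), Rpl7l1, against 6.53% of all genes, and with Het lower in 0, against 7.49%.

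**Figure D2:**
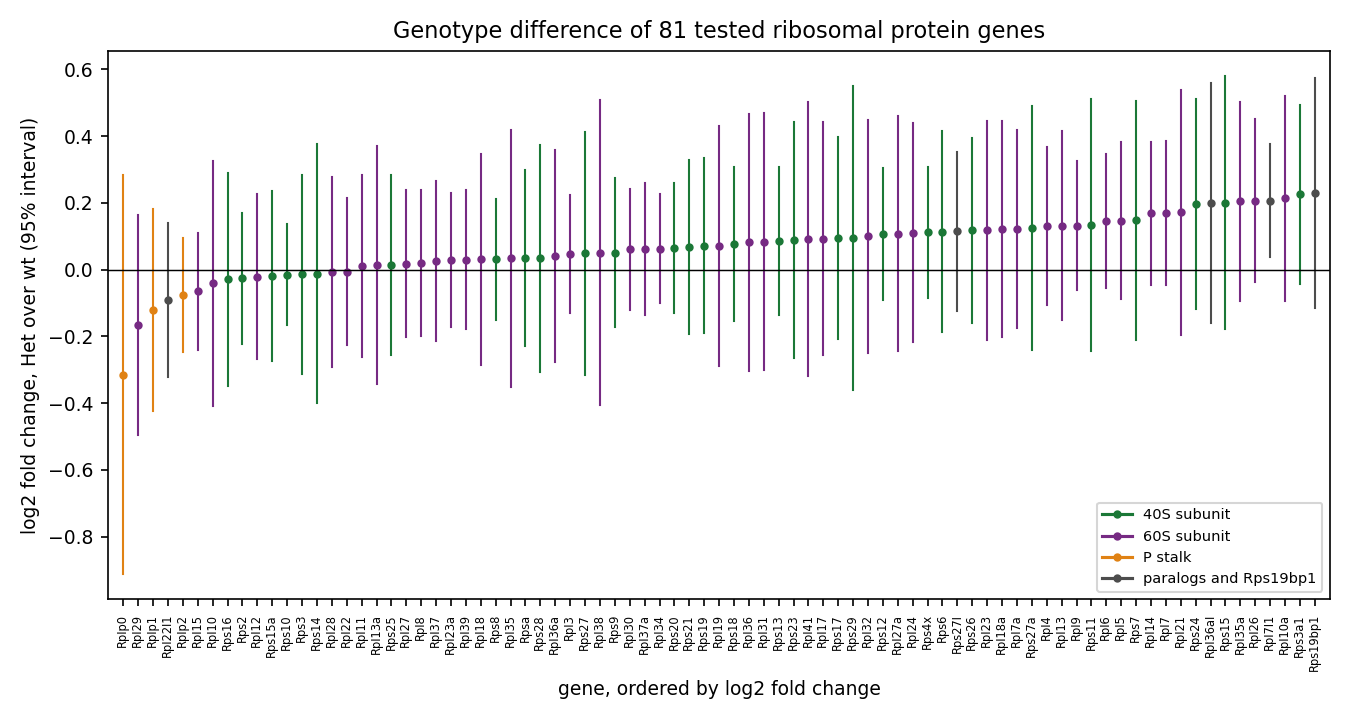
Log2 fold change of Het over wt for 81 of the 82 tested members, with its 95% interval from edgeR, ordered from lowest to highest and coloured by subunit. Of these intervals that of Rpl7l1 alone lies off 0, and the P stalk genes sit at the low end.

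Among the 31 genes of the 40S subunit, 24 had a log2 fold change above 0 and 7 below, with a median of 0.07, and 0 were at an unadjusted p under 0.05. Over all genes tested, 51.2% were above 0 and 7.88% were at this p (edgeR), against 79.3% and 1.22% of the members. Rps3a1, which lies near the mRNA exit of the subunit, had 168, 184 and 158 CPM in Het forebrains and 120, 161 and 156 CPM in wt forebrains. Wt replicate 1 was low and wt replicate 2 lay above Het replicate 3, and the log2 fold change was 0.23 (SE 0.12, edgeR adjusted p 0.700). Rps15, a protein of the subunit's head that is needed for export of its precursor, had 170, 221 and 178 CPM in Het and 130, 158 and 208 CPM in wt. Its groups overlapped, with a log2 fold change of 0.20 (SE 0.17).

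Rps24, a gene of Diamond-Blackfan anaemia, had 127, 153 and 129 CPM in Het forebrains and 102, 109 and 146 CPM in wt forebrains. Its wt replicate 3 was higher than Het replicates 1 and 3, and the log2 fold change was 0.20 (SE 0.14, edgeR adjusted p 0.777). Rps6, the substrate of S6 kinase by which mTOR activity is often read, had 122, 152 and 122 CPM in Het and 107, 113 and 145 CPM in wt, so the groups overlapped, with a log2 fold change of 0.11 (SE 0.13). Rpsa, also known as the laminin receptor, had 338, 392 and 310 CPM in Het and 325, 303 and 388 CPM in wt, with a log2 fold change of 0.03 (SE 0.12). Rps4x, which is X-linked, had 291, 319 and 283 CPM in Het and 259, 265 and 302 CPM in wt, with a log2 fold change of 0.11 (SE 0.086). In each of these 3 genes wt replicate 3 lay above Het replicates 1 and 3.

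The abundant 40S mRNA Rps9 did not separate the genotypes. It had 465, 525 and 465 CPM in Het forebrains and 427, 445 and 531 CPM in wt forebrains, with a log2 fold change of 0.05 (SE 0.099). Its highest library was wt replicate 3 and the next Het replicate 2. Rps19, the first gene found in Diamond-Blackfan anaemia, had 164, 200 and 162 CPM in Het and 156, 153 and 192 CPM in wt, with Het replicate 2 and wt replicate 3 on top and a log2 fold change of 0.07 (SE 0.12).

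Of the 43 genes of the 60S subunit, 37 had a log2 fold change above 0 and 6 below, with a median of 0.07, and 0 were at an unadjusted p under 0.05. These counts stand beside 51.2% of all genes above 0 and 7.88% at this p (edgeR). Rpl26, which lies near the exit of the peptide tunnel, had 154, 123 and 115 CPM in Het forebrains and 111, 115 and 113 CPM in wt forebrains. Het replicate 1 was high and the wt libraries were within a narrow range, with a log2 fold change of 0.21 (SE 0.11, edgeR adjusted p 0.698). Without Het replicate 1 it was 0.07.

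Rpl7 had 294, 313 and 280 CPM in Het forebrains and 246, 245 and 298 CPM in wt forebrains. Here wt replicate 3 alone reached the Het range, with a log2 fold change of 0.17 (SE 0.095, edgeR adjusted p 0.717). Rpl14 had 117, 133 and 117 CPM in Het and 100, 106 and 122 CPM in wt, and Rpl6 had 225, 239 and 218 CPM in Het and 189, 198 and 229 CPM in wt. Both showed the same arrangement, with log2 fold changes of 0.17 (SE 0.094) and 0.15 (SE 0.089). Rpl9 had 153, 156 and 152 CPM in Het and 128, 137 and 156 CPM in wt, where wt replicate 3 again fell among the Het values, with a log2 fold change of 0.13 (SE 0.085).

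Rpl5 and Rpl11, which carry the 5S RNA and bind Mdm2 when free, did not separate the genotypes. Rpl5 had 189, 203 and 188 CPM in Het forebrains and 152, 172 and 201 CPM in wt forebrains, with a log2 fold change of 0.15 (SE 0.10). Its wt replicate 3 alone reached the Het range. Rpl11 had 171, 197 and 155 CPM in Het and 162, 156 and 200 CPM in wt, with a log2 fold change of 0.01 (SE 0.12) and the groups overlapped. Rpl10a, which is known in mouse cells to vary among ribosomes, had 116, 128 and 114 CPM in Het and 82.3, 103 and 124 CPM in wt, with a log2 fold change of 0.21 (SE 0.14). Rpl35a, a gene of Diamond-Blackfan anaemia, had 83.6, 94.7 and 75.0 CPM in Het and 60.2, 75.3 and 84.4 CPM in wt, with a log2 fold change of 0.20 (SE 0.13). Wt replicate 1 was the lowest library for both of these genes.

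Members of the 60S subunit below 0 included Rpl29 and Rpl15. Rpl29, also known as a heparin-binding protein, had 33.4, 38.8 and 41.7 CPM in Het forebrains and 34.3, 42.8 and 50.9 CPM in wt forebrains, with overlap and a log2 fold change of -0.17 (SE 0.15). Rpl15, a gene of Diamond-Blackfan anaemia, had 232, 215 and 204 CPM in Het and 227, 238 and 217 CPM in wt, with a log2 fold change of -0.07 (SE 0.077). Of the 18 members listed as Diamond-Blackfan anaemia genes, 16 were above 0 and 2 below, with a median of 0.08 and 0 at an unadjusted p under 0.05. Above 0 were also 79.3% of all members and 51.2% of all genes, and 7.88% of all genes were at this p (edgeR).

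The P stalk, made of Rplp0, Rplp1 and Rplp2, recruits elongation factors to the 60S subunit, and its 3 genes were the group in which all members had values below 0. Rplp0 had 256, 405 and 242 CPM in Het forebrains and 357, 252 and 515 CPM in wt forebrains, a spread that was the widest of all members. Rplp1 had 284, 344 and 272 CPM in Het and 303, 285 and 390 CPM in wt. Rplp2 had 82.1, 84.7 and 83.1 CPM in Het and 86.9, 81.7 and 94.7 CPM in wt. The groups overlapped in each, the log2 fold changes were -0.31 (SE 0.26), -0.12 (SE 0.13) and -0.08 (SE 0.076), and the lowest edgeR adjusted p of the 3 was 0.817. Whether the stalk genes differ from the other members was not tested. With 1 library left out Rplp0 ran from -0.59 to -0.02 and Rplp2 from -0.13 to -0.02, below 0 throughout. Rplp1 ran from -0.23 to 0.03 and so changed sign. The size of the values rests on single libraries: without wt replicate 3 Rplp0 was at -0.02 and Rplp1 at 0.03.

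Among paralogs, Rpl7l1, a protein related to Rpl7 that acts in making the 60S subunit, had the lowest p of all members. It had 60.3, 63.8 and 66.7 CPM in Het forebrains and 53.2, 54.3 and 57.8 CPM in wt forebrains. All Het libraries lay above all wt libraries, the log2 fold change was 0.21 (SE 0.074, unadjusted p 0.0219 by edgeR), and the adjusted p was 0.558. The exact 2-sided permutation test of its CPM gave 0.1, the smallest p that 3 against 3 libraries allow. Its ratio to Rpl7 did not separate the genotypes, at 20.5, 20.4 and 23.8% in Het and 21.7, 22.2 and 19.4% in wt (exact permutation p 0.8).

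Rpl22l1, a paralog of Rpl22 whose level is known to be held down by Rpl22 in mouse tissues, had 31.3, 25.8 and 26.7 CPM in Het forebrains and 28.4, 32.1 and 28.9 CPM in wt forebrains. Rpl22 had 213, 225 and 186 CPM in Het and 199, 197 and 230 CPM in wt. Neither separated the genotypes, with log2 fold changes of -0.09 (SE 0.10) for the paralog and -0.01 (SE 0.097) for Rpl22. The ratio of Rpl22l1 to Rpl22 was 13.5 ± 1.78% in Het and 14.4 ± 1.88% in wt (SD, n = 3 each, exact permutation p 0.7). Rpl36al stood at 21.9% of Rpl36a in Het and 19.7% in wt, and Rps27l at 21.9% of Rps27 in Het and 21.0% in wt, with exact permutation p of 0.4 and 0.7. Rps19bp1 had 9.23, 10.6 and 9.66 CPM in Het and 6.80, 8.69 and 9.71 CPM in wt, with wt replicate 3 among the Het values and a log2 fold change of 0.23 (SE 0.15).

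**Figure D3:**
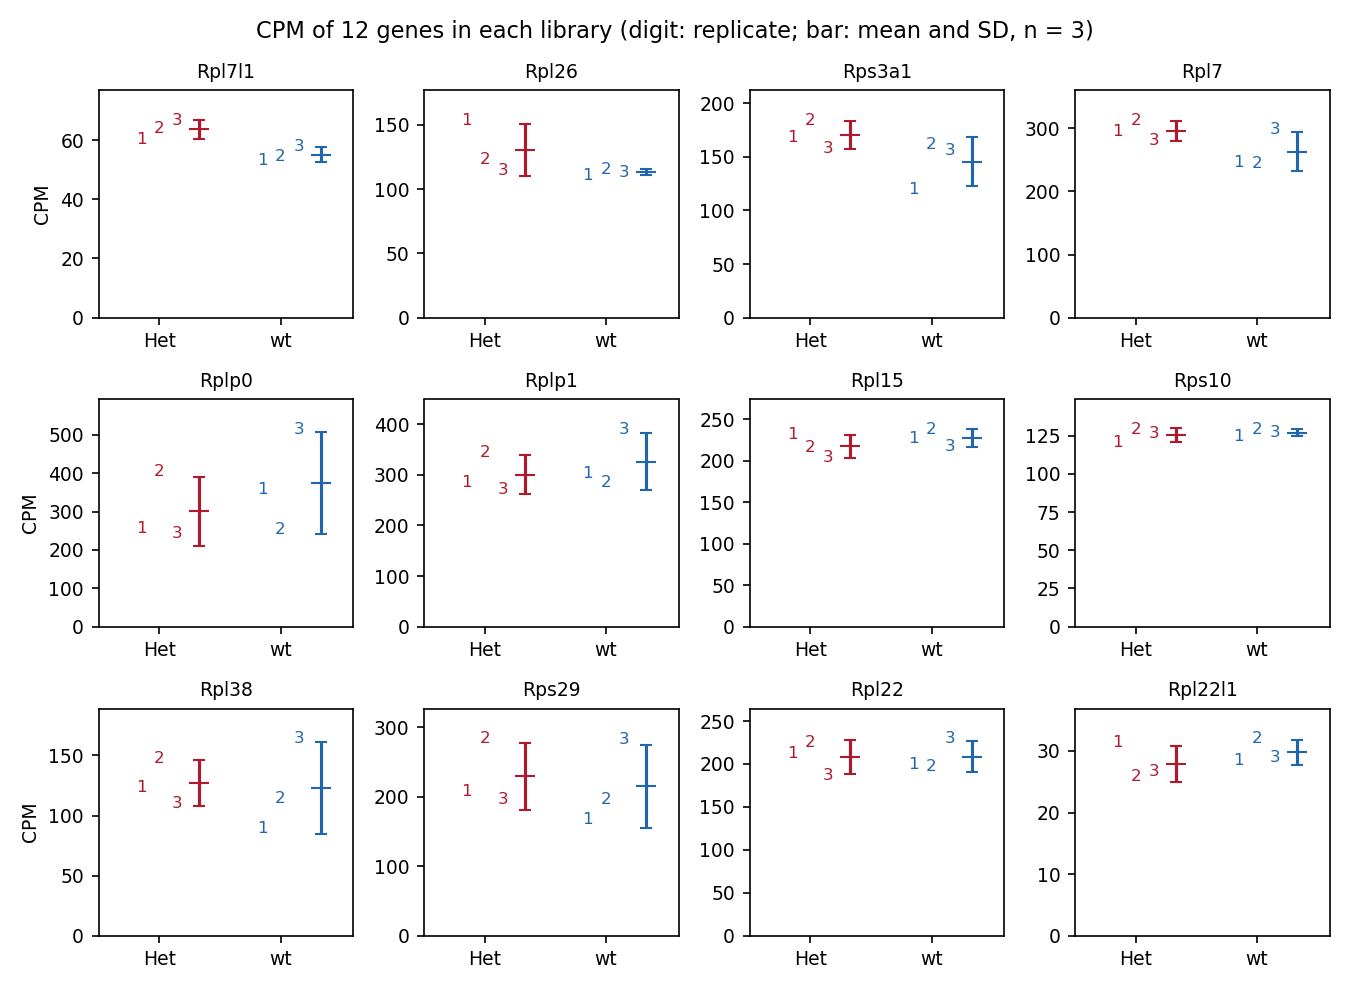
CPM of 12 members in each library, with digits for the replicate and a bar for the mean and SD (n = 3). Het is left of wt, each axis starts at 0, and only in Rpl7l1 do the libraries of the genotypes not overlap; in Rplp0, Rplp1, Rpl38 and Rps29 Het replicate 2 and wt replicate 3 lead.

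Libraries differed more than genotypes. Het replicate 2 and wt replicate 3 were the 2 highest libraries in 68 of 82 members (82.9%), against 16.1% of all genes tested, and wt replicate 1 was the lowest in 53 (64.6%), against 16.7%. Het replicate 2 was the highest library for 40 members and wt replicate 3 for 35. The mean log2 CPM of this pair minus that of the 4 other libraries had a median of 0.29 over the members, with a range of -0.11 to 0.74, against a median of 0.02 over all genes. This difference exceeded the size of the genotype log2 fold change in 76 of 82 members, and the same share over all genes was not computed. The pair was chosen with earlier results of these data known, which favours such a count, so it is a description and not a test. The pair was the one with the most RNA without a poly(A) tail, as given above. It also had the lowest share of mitochondrial counts, 0.248% in Het replicate 2 and 0.262% in wt replicate 3, against 0.375% and 0.385% in the other Het libraries and 0.355% and 0.420% in the other wt libraries. The part of either in the ribosomal protein levels was not tested.

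**Figure D4:**
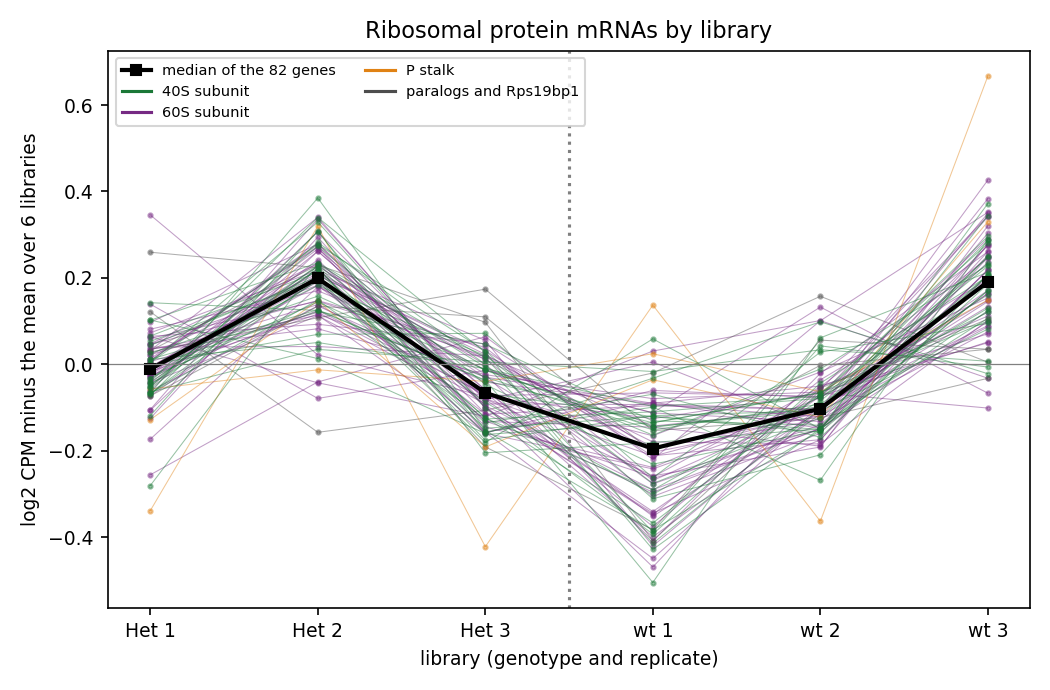
Log2 CPM of each tested member minus its mean over the 6 libraries, with Het libraries left of the dotted line and wt libraries right of it. Thin lines are genes coloured by subunit and the black line is the median of the 82 genes, which peaks in Het replicate 2 (0.20) and wt replicate 3 (0.19) and is lowest in wt replicate 1 (-0.19).

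The members moved as a block from library to library. Their SD of log2 CPM within genotypes had a median of 0.19, from 0.04 (Rps10) to 0.46 (Rplp0), against 0.10 for the 4898 other genes of at least 50 CPM. The first principal component of the centred values held 79.8% of the members' variance, against 50.6% for those other abundant genes. Rpl38, which in mouse embryos is needed for translation of Hox mRNAs, had 123, 148 and 110 CPM in Het forebrains and 89.6, 114 and 164 CPM in wt forebrains. Rps29 had 208, 284 and 196 CPM in Het and 167, 196 and 282 CPM in wt. In both genes the pair was on top and wt replicate 1 at the bottom, while the log2 fold changes were 0.05 (SE 0.20) and 0.10 (SE 0.20).

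A few members did not follow. Rps10 had 121, 129 and 127 CPM in Het forebrains and 125, 129 and 127 CPM in wt forebrains, the narrowest spread of all members, with a log2 fold change of -0.02 (SE 0.067). Rpl22l1, Rpl39, Rpl26, Rpl15 and Rps2 were the 5 members with a lower mean in the pair than in the other libraries, by log2 values of -0.11, -0.11, -0.06, -0.06 and -0.0064. Rpl34, with 158, 163 and 151 CPM in Het and 146, 147 and 159 CPM in wt, was among the narrowest too, with a log2 fold change of 0.06 (SE 0.072). Exons of Rps10, Rpl15, Rps2 and Rpl22l1 overlapped an exon of another counted gene, so their counts are less certain. Those of Rpl39, Rpl26 and Rpl34 did not. Rps10, Rpl38 and Rpl15 all carry a pyrimidine run and CCGGAAG in the promoters printed above. The starts used there lie 301, 32 and 360 bases from the start of the principal transcript. The part of these motifs in the levels was not tested.

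The pair's 1 Het and 1 wt library had like levels of the members, and in the 4 other libraries most members were higher in Het. With 1 library per genotype the pair does not compare genotypes. In the pair the difference of Het replicate 2 minus wt replicate 3 had a median log2 value of 0.0033, with 44 members above 0 and 38 below, and the summed level had a ratio of 0.993. In the 4 others the median difference was 0.12, with 69 above 0 and 13 below, and the summed level had a ratio of 1.07. Het replicates 1 and 3 were both above wt replicates 1 and 2 in 38 members (46.3%), against 22.7% of all genes tested, and both below in 1 (1.22%), Rplp1, against 23.4%. In the fit of the 4 libraries alone 21 members (25.6%) were at an unadjusted p under 0.05, all higher in Het, against 12.9% of all genes, and 0 passed the adjusted threshold, with a lowest adjusted p of 0.232 (edgeR). With a term for the pair in the fit of all 6 libraries, 20 members (24.4%) were at an unadjusted p under 0.05, against 15.7% of all genes. Of these, 18 were higher and 2 lower (Rplp0 and Rplp1), and the lowest adjusted p was 0.159 (edgeR). Leaving out wt replicate 3 alone put 26 members (31.7%) at an unadjusted p under 0.05, against 10.5% of all genes. All of these were higher in Het, and the lowest adjusted p was 0.347 (edgeR). The pair was chosen with earlier results of these data known. It held the highest libraries for most members, so setting it aside also removed part of their spread within genotypes. The members also moved together from library to library. The counts of members above are therefore not independent observations, and they describe these splits without testing a genotype difference.

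**Figure D5:**
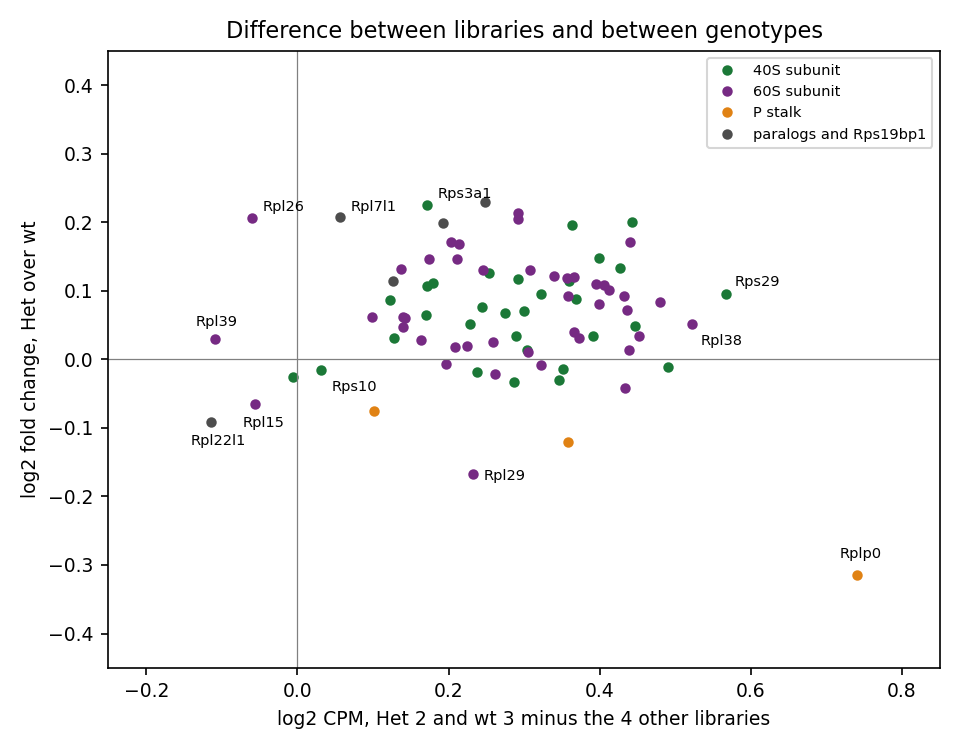
Difference between libraries (x axis, mean log2 CPM of Het replicate 2 and wt replicate 3 minus that of the 4 other libraries) and between genotypes (y axis, log2 fold change of Het over wt) for the 82 tested members. Of the points, 77 lie right of 0; Rplp0 is far right and low, and Rpl22l1, Rpl39, Rpl26, Rpl15 and Rps2 lie left of 0.

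Ribosomal proteins whose names fall outside the rule behaved alike across libraries. Fau, whose product yields the 40S protein eS30, had 70.9, 110 and 79.5 CPM in Het forebrains and 61.9, 70.8 and 102 CPM in wt forebrains. Fau and Rack1, a scaffold protein of the 40S subunit, each had Het replicate 2 and wt replicate 3 as their highest libraries, and neither was at an unadjusted p under 0.05.

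In lists of other genes of ribosome production 0 passed the adjusted threshold. Their counts stand beside 7.88% of all genes at an unadjusted p under 0.05 and 51.2% of all genes with a log2 fold change above 0. Of 20 elongation factors and other 5′ TOP mRNAs, 17 were above 0, with a median log2 fold change of 0.07, and 2 had an unadjusted p under 0.05, Npm1, the histone chaperone of the nucleolus, and Eif3f. Of 62 assembly factors, 49 were above 0 (median 0.06) and 2 were at an unadjusted p under 0.05, among them Noc3l, a factor of the 60S precursor. Of 20 genes of RNA polymerase I and rDNA transcription, 15 were above 0 (median 0.07), and Ttf1, the terminator factor, was the 1 at an unadjusted p under 0.05. Of 77 mitochondrial ribosomal proteins, 59 were above 0 (median 0.07) with 1 at an unadjusted p under 0.05, a median like that of the cytosolic set. The pair of libraries was higher than the others by a median log2 value of 0.11 in the mitochondrial list, 0.09 in the assembly list and 0.08 in the TOP list, against 0.29 in the members.

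Npm1 had 222, 203 and 235 CPM in Het forebrains and 171, 200 and 193 CPM in wt forebrains, without overlap, with a log2 fold change of 0.22 (SE 0.088, edgeR adjusted p 0.591). Of 12 host genes of small nucleolar RNAs, many of which are TOP transcripts, 10 were above 0 with a median of 0.13, and 2 were at an unadjusted p under 0.05. Snhg5 had 43.4, 43.1 and 43.1 CPM in Het and 32.6, 37.2 and 32.6 CPM in wt, with a log2 fold change of 0.34 (SE 0.082) and an edgeR adjusted p of 0.483. Of 13 genes of ribosomal protein chaperones and sensors of free subunits, 11 were above 0 with 1 at an unadjusted p under 0.05, Sesn2, a stress-induced inhibitor of mTORC1. Sesn2 had 6.28, 7.24 and 8.54 CPM in Het and 3.81, 3.85 and 4.51 CPM in wt, with a log2 fold change of 0.86 (SE 0.16, edgeR adjusted p 0.483).

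Among 17 genes of S6 kinases and TOP regulation 10 were above 0 and 7 below, with a median of 0.01. Rps6kb2, an S6 kinase, had 24.7, 25.8 and 26.2 CPM in Het forebrains and 20.4, 20.9 and 23.9 CPM in wt forebrains, with a log2 fold change of 0.23 (SE 0.095, edgeR adjusted p 0.606). Of the 10 kinases that the name rule leaves out, Rps6kl1 had 17.9, 17.7 and 16.0 CPM in Het and 25.3, 22.0 and 26.1 CPM in wt, with a log2 fold change of -0.51 (SE 0.10, edgeR adjusted p 0.483). The groups did not overlap in either gene.

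Marker lists of cell types and of proliferation are given because the make-up of the tissue bears on summed levels. In these lists 1 gene passed the adjusted threshold, the meningeal marker Ptgds (edgeR adjusted p 0.0238), which was lower in Het. All 17 proliferation genes had values above 0, 16 of them at an unadjusted p under 0.05, against 3.27% of all genes in this direction, and their summed level was 1489 to 1833 CPM in Het forebrains and 1192 to 1335 CPM in wt forebrains. In 0 of the 17 were Het replicate 2 and wt replicate 3 the 2 highest libraries. Of 10 progenitor markers 9 were above 0 and 6 at an unadjusted p under 0.05, with overlapping sums of 1115 to 1235 CPM in Het and 1009 to 1159 CPM in wt. Of 10 neuronal markers 7 were below 0 and 3 of these at an unadjusted p under 0.05, against 4.61% of all genes in this direction, with sums of 6049 to 6247 CPM in Het and 6390 to 6871 CPM in wt. The 3 above 0 were Neurod2, Tbr1 and Bcl11b, which are also forebrain identity genes. All 9 forebrain identity genes were above 0, with a median log2 fold change of 0.17 and 1 at an unadjusted p under 0.05. Their sums overlapped, at 747 to 893 CPM in Het and 702 to 796 CPM in wt. Of 9 erythroid markers tested 7 were below 0, 3 of them at an unadjusted p under 0.05, with sums of 586 to 745 CPM in Het and 752 to 950 CPM in wt. The embryonic globin Hbb-y lay the other way, at 21.5, 22.8 and 82.5 CPM in Het and 4.49, 6.55 and 9.53 CPM in wt (log2 fold change 2.62, edgeR adjusted p 0.483). Among 8 meningeal markers 6 were below 0, 4 of them at an unadjusted p under 0.05, with sums of 401 to 446 CPM in Het and 472 to 553 CPM in wt. Of 8 microglial markers 6 were below 0, 2 of them at an unadjusted p under 0.05, with overlapping sums of 53.0 to 66.0 CPM in Het and 61.3 to 70.5 CPM in wt. The sums also overlapped for 6 endothelial markers (197 to 227 CPM in Het and 208 to 235 CPM in wt) and 4 choroid plexus markers (281 to 431 CPM in Het and 357 to 434 CPM in wt), with 0 genes of either list at an unadjusted p under 0.05. The part of these cell types in the members' values was not tested.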

How the data were processed

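Bulk RNA of 6 forebrains was analysed, 3 Het and 3 wt, grouped by their titles. Raw counts per gene were deposited, made by the authors with bcl2fastq 2.17.1.14, HISAT2 on GRCm38/mm10, SAMtools 1.9 and HTSeq 0.9.1, per the submitters' processing notes. Not given in the sources used here are the annotation release, the strand setting and the handling of reads with several matches. Per the labels the molecule was polyadenylated RNA, although the kit they name depletes ribosomal RNA from total RNA.

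Of 33084 genes, 32888 were given a symbol from GENCODE M21. Counts were fitted in R 4.3.3 with edgeR 4.0.16 (filterByExpr, TMM, quasi-likelihood test, genotype only), adjusted by Benjamini-Hochberg over 19403 genes, with a threshold of 0.05; limma 3.58.1 and DESeq2 1.42.0 were alternatives. Log2 fold changes are Het minus wt. RPKM was computed over a principal transcript, chosen by protein-coding type, then APPRIS rank, then annotation support level, with the shortest taken among ties. None of the libraries was a copy of another (chi-square of their counts 4.55 to 29.7 times its degrees of freedom). The spread between libraries thus exceeded counting error, and its sources were not tested.

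The members, the lists, the pair of libraries and the rule for naming genes were chosen with earlier results of these data known. The rule names Dyrk1a, the 6 members of lowest unadjusted p per direction, the 6 of highest RPKM, members of lists of special roles, disease genes and paralogs, the 3 of widest and 3 of narrowest spread, and 3 of each other list. Not all of these are printed, and a few are not reported here; Rps2 and Rpl39 were also named for their pair difference and Fau for its role.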

Additional observations from a re-analysis of the deposited data

How the results depend on the processing

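In all 17 alternatives 0 members passed the adjusted threshold. The median log2 fold change of the members kept its sign in all but 2 alternatives, and ranged from -0.01 to 0.19 when a library was left out; the log2 ratio of summed levels ranged from -0.03 to 0.18. The number of members at an unadjusted p under 0.05, 1 as reported, was 0 to 26 when a library was left out, 0 with the replicate block, 0 with canonical members only, 20 with the pair term and 21 with the 4 other libraries alone, a fit added after the data were seen. Genes called over the whole table, 2 as reported, numbered 27 by DESeq2, 4 without a low-count filter, 0 with the replicate block, 6 with the pair term, 6 with the 4 other libraries alone and 0 to 5 when a library was left out. The cause was not tested.

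Of 43 genes followed, 10 changed sign in at least 1 alternative. Leaving out a library gave log2 fold changes of -0.087 to 0.13 for Rpl11, -0.037 to 0.012 for Rps10, -0.13 to 0.32 for Rpl38, -0.089 to 0.34 for Rps29, -0.010 to 0.15 for Rps9, -0.033 to 0.18 for Rps19, -0.0018 to 0.26 for Rps6, -0.063 to 0.14 for Rpsa, -0.066 to 0.070 for Rpl22 and -0.23 to 0.029 for Rplp1. Rpl11 was also at -0.0095 with upper-quartile factors and at -0.0015 without a filter, and Rpl22 at 0.012 with the 4 other libraries alone. Sesn2 alone passed the adjusted threshold in an alternative, DESeq2 (0.86, adjusted p 0.0296).

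Deviations of same-numbered Het and wt libraries had correlations of -0.32 to 0.20, against 0.45 for Het replicate 2 with wt replicate 3. The labels do not tie equal numbers together, and so few correlations cannot exclude a pairing. The replicate block gave a members' median of 0.08. Precision is limited by 3 libraries per genotype: the smallest count of a canonical member in any library was 692, so the spread between libraries, not depth, sets the intervals.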

Other observations

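Members with and without a pyrimidine run near the start had like values. The 39 canonical members with a run had a median log2 fold change of 0.07, and the pair of libraries exceeded the others by a median log2 value of 0.29 in them; the 18 without had medians of 0.07 and 0.31. Across 77 canonical members, the mRNA length and this pair difference had Spearman's rho of -0.13, against -0.24 across 4892 other abundant genes. Across the 77, the share of windows found in other genes had rho of 0.15 with the log2 fold change and -0.04 with the pair difference. The 85 members had 298 annotated pseudogenes named after them. Genes of 1 sample set share libraries, so these correlations describe and do not test.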
